A study of Homo sapiens with 6 samples.

Results

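The early response of A375 cells to vemurafenib was read from 2 of the 6 arrays of the series, the array of cells given 10 µM vemurafenib for 6 h and the array of cells given the solvent DMSO for 6 h. A375 is an established human melanoma cell line driven by a mutated BRAF kinase, and vemurafenib is an inhibitor of that kinase. The other 4 arrays held cells given 10 µM vemurafenib together with 100 nM AT9283 for 6 h, 100 nM AT9283 alone for 6 h, 10 µM vemurafenib for 16 h and DMSO for 16 h. AT9283 is an inhibitor of several kinases, the Aurora kinases and JAK2 among them. All 6 cultures were kept in RPMI1640 medium with serum, each condition had 1 array, and the labels do not say whether an array held RNA of 1 culture or of a pool.

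Each value is the intensity of the probe set used for a gene, and each difference is the log2 intensity with vemurafenib minus that with DMSO. With 1 array a side there is no replicate error, so a rule of size took the place of a test. A gene is said to have risen or fallen only if its log2 intensities differed by 1 or more (2-fold) and its higher array reached an intensity of 64 (log2 6), called the floor below. The floor is a setting of this report and not a measured background. A gene could reach it through 1 array alone, so counts among genes at the floor lean towards genes that differed. Of 19676 genes, 9095 reached the floor on at least 1 of the 6 h arrays, and their differences had an SD of 0.43 and a median of 0.02. Between the arrays without vemurafenib the differences were smaller, with an SD of 0.13 for AT9283 minus DMSO at 6 h and of 0.24 for DMSO at 16 h minus DMSO at 6 h. Over the same rule, 2 genes (0.0224%) differed between AT9283 and DMSO, and 25 genes (0.276%) between the DMSO arrays.

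The labelled cell type was checked against 11 measured melanocyte lineage genes. The lineage factors SOX10, MITF, PAX3 and TFAP2A were at the floor, whereas the other 7, with the pigment genes MLANA, PMEL and TYR among them, were below it on both arrays. MLANA had an intensity of 11.1 with vemurafenib and 11.7 with DMSO. None of the 11 passed the size rule. Of 10 keratinocyte and epithelial, 6 fibroblast and 7 endothelial and blood markers, 4, 2 and 1 were at the floor, and none passed the rule. The log2 values of the keratinocyte markers summed to 60.6 with vemurafenib and 59.8 with DMSO, those of the fibroblast markers to 30.9 and 29.4, and those of the endothelial and blood markers to 29.3 and 29.3, in the same order of arrays.

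In the MAP kinase pathway, RAS activates RAF kinases such as BRAF, RAF activates MEK, and MEK activates ERK, which enters the nucleus and switches on transcription factors. The first genes to respond, called immediate early genes, encode further transcription factors of the FOS, JUN, EGR and MYC families. ERK also induces its own brakes, the dual specificity phosphatases that remove phosphate from MAP kinases and the Sprouty and SPRED proteins that act upstream. ATF4, the subject of the series, is made when the integrated stress response is active, and it raises genes of amino acid synthesis and transport.

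After 6 h of vemurafenib, 195 genes fell (2.14% of those at the floor) and 94 rose (1.03%). The genes that fell had a median difference of -1.42, 42 of them fell at least 4-fold and 17 at least 8-fold. Those that rose had a median of 1.46, with 22 at least 4-fold and 8 at least 8-fold higher. Of 20 ERK output genes at the floor 19 fell and none rose, and of 53 ATF4 program genes 18 rose and none fell. Both lists, like those used below, were written with earlier results of these data known, so such counts are no independent support. The other 176 falling and 76 rising genes were on neither the ERK output nor the ATF4 program list. Since an array below the floor gives no firm level, 119 of the falls and 52 of the rises had both arrays at the floor. The rule is a sharp line. XBP1 (1.01), SLITRK5 (1.01) and PDE4DIP (1.02) lay just inside it, and BASP1 (0.996), ATF4 (0.99) and TMEM129 (0.99) just outside. On the other side SH3RF3 (-1.001), SLC35E4 (-1.002) and GRK5 (-1.003) lay just inside, and RGS17 (-0.998), TMEM201 (-0.99) and LZTS1 (-0.99) just outside. SLITRK5, PDE4DIP, BASP1, TMEM129 and the last 6 are named for this position alone.

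**Figure D1:**
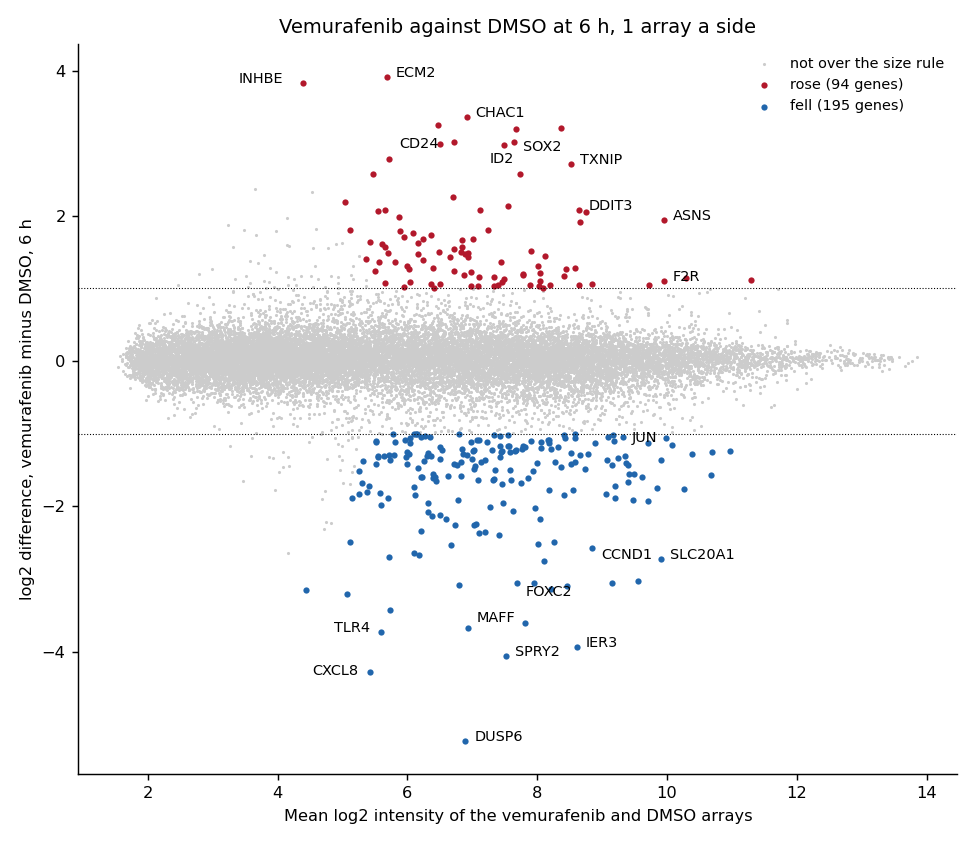
Each point is 1 of 19676 genes, placed by the mean log2 intensity of the vemurafenib and DMSO arrays at 6 h (x axis) and by the log2 difference, vemurafenib minus DMSO (y axis). The 94 genes that rose and the 195 that fell are coloured red and blue, the dotted lines mark differences of 1 and -1, and the lowest point is DUSP6 at -5.23.

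The brakes of the pathway were among the genes that fell most. DUSP6, a phosphatase specific for ERK, had an intensity of 19.4 with vemurafenib and 726 with DMSO at 6 h. In the other pairs it had 21.0 with both drugs and 653 with AT9283 alone, and at 16 h it had 20.9 with vemurafenib and 779 with DMSO. The 3 arrays with vemurafenib lay far below the 3 without it. Taken against the floor, the fall at 6 h was at least 11.4-fold, and the other DUSP6 probe sets had differences of -6.65 and -7.26. DUSP4, which acts on nuclear ERK, had 64.7 with vemurafenib and 787 with DMSO (-3.61). DUSP5, also a nuclear phosphatase, had 45.7 against 206 (-2.18) and DUSP7 had 92.0 against 236 (-1.36), or -0.97 as the mean over its probe sets. Other phosphatases of the list were not over the rule, with DUSP1 at -0.72, DUSP10 at -0.27, DUSP8 at -0.01 and DUSP16, which was below the floor, at 0.20. DUSP9 (-0.03) and DUSP2 (-0.98) were likewise below the floor on both arrays and could not be ranked. In all, 10 MAP kinase phosphatases were measured and 7 were at the floor. Of the 7, 4 fell (57.1%, against 2.14% of all genes at the floor) and none rose. DUSP6 and DUSP5 reached the floor on the DMSO array only, which favoured falls.

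All 4 Sprouty and SPRED genes at the floor fell, against 2.14% of all genes at the floor. Of these, SPRY2 and SPRY4 reached the floor on the DMSO array only, which favoured falls. SPRY2 had 44.9 with vemurafenib and 750 with DMSO (-4.06), at least 11.7-fold lower against the floor. SPRED2 had 65.1 against 332 (-2.35), SPRY4 had 28.0 against 74.8 (-1.42) and SPRED1 had 194 against 448 (-1.20). SPRY1 had a difference of -0.95 with both arrays below the floor, and SPRED3 of -0.07. The measured kinases and adaptors of the cascade itself did not pass the rule. Over 18 measured genes of RAS, RAF, MEK and ERK signalling the median was -0.02, and MAPK3, which encodes ERK1, had a difference of 0.13. The ends of that range, both picked after their values were seen, were the RAS exchange factor SOS2 at 0.83 and the RAS GTPase activator RASA2 at -0.62.

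**Figure D2:**
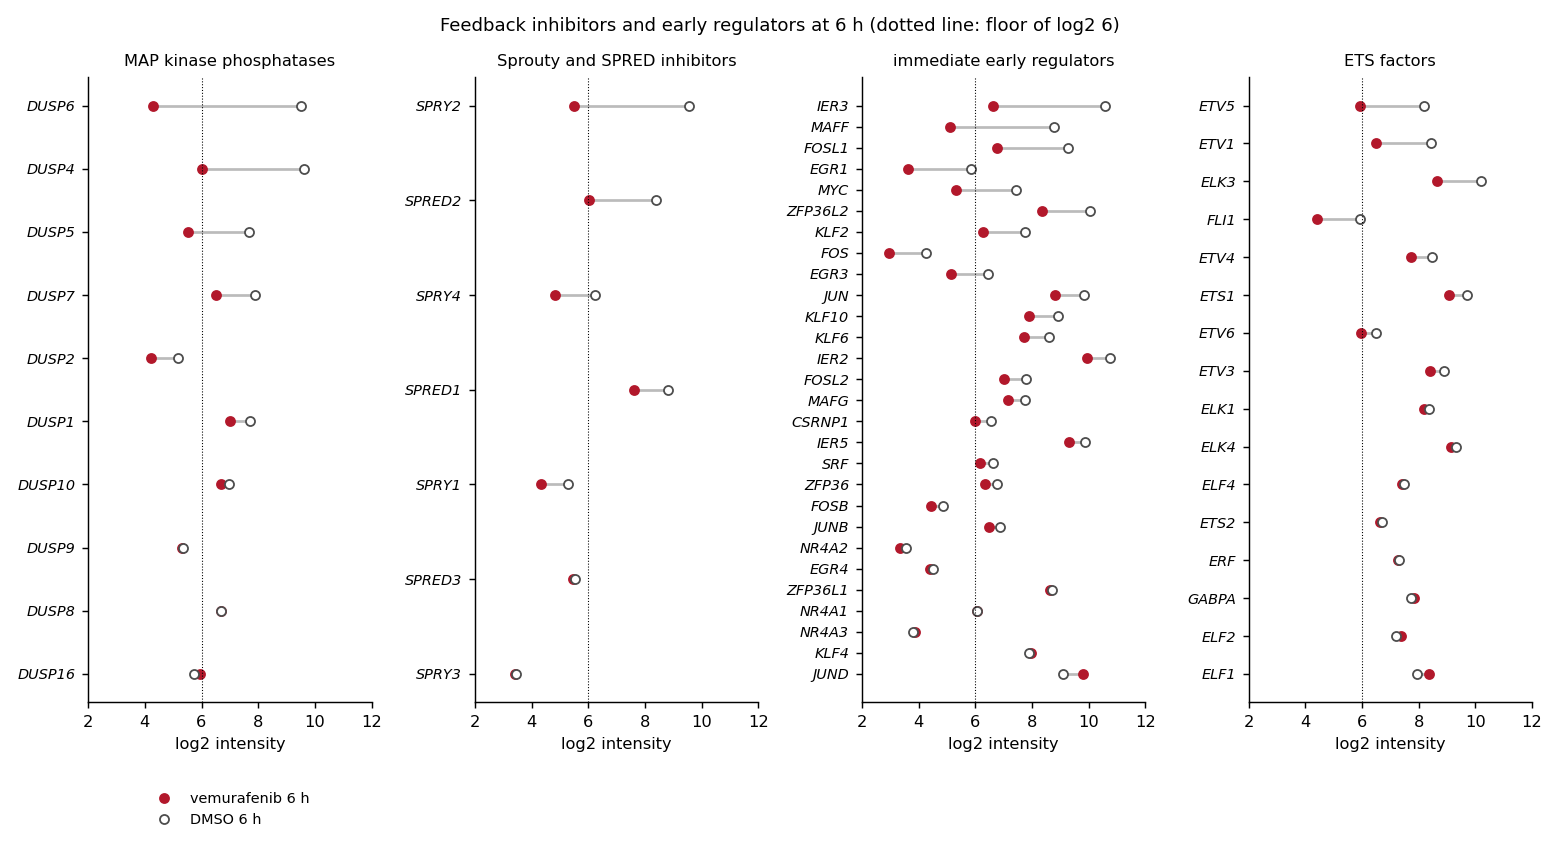
Each line joins the log2 intensity of a gene with vemurafenib to that with DMSO at 6 h, for the MAP kinase phosphatases, the Sprouty and SPRED inhibitors, the immediate early regulators and the ETS factors, with the floor at log2 6 marked. DUSP6, SPRY2, IER3 and MAFF have the longest lines, and JUND is higher with vemurafenib.

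Of 28 measured immediate early regulators, 22 were at the floor. Of these, 9 fell (40.9%, against 2.14% of all genes at the floor) and none rose. The median was -0.70 against 0.02 over all genes. Of the 9, MAFF, MYC and EGR3 reached the floor on the DMSO array only, which favoured falls. IER3, a stress and survival protein that ERK phosphorylates, had 100 with vemurafenib and 1529 with DMSO (-3.93), and it had 111 with both drugs and 1648 with AT9283 alone. MAFF, a small MAF protein that pairs with other bZIP factors, had 34.3 against 436 (-3.67), and its second probe set had -1.61. FOSL1, the FOS family member FRA1, had 108 against 619 (-2.51). MYC, a driver of growth and proliferation, had 39.7 against 174 (-2.13). Smaller falls were those of ZFP36L2 (-1.72), which promotes decay of messenger RNAs, KLF2 (-1.49), EGR3 (-1.29), JUN (-1.04) and KLF10 (-1.01). After quantile normalization JUN (-0.998) and KLF10 (-0.97) were under the rule, and with an offset of 16 EGR3 (-0.997) and KLF10 were. Without probe sets that the array marks as shared between transcripts 4 members fell, with KLF2 at -0.09 on a probe set below the floor (-0.79 as the mean over its probe sets).

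The classical members FOS and EGR1 could not be ranked with these. FOS had 7.70 with vemurafenib and 19.1 with DMSO, and EGR1 had 12.5 and 58.3, all below the floor. JUND, a JUN family member, had 905 with vemurafenib and 548 with DMSO (0.72), which is under the rule. NR4A1 (0.01), ZFP36L1 (-0.07) and KLF4 (0.09) differed little at 6 h. KLF4, a zinc finger factor of epithelial and stem cells, had 115 with both drugs and 248 with AT9283 alone, and at 16 h it had 138 with vemurafenib and 317 with DMSO, so it fell in both of those pairs. JUN had 445 with vemurafenib and 916 with DMSO, and 202 with both drugs and 823 with AT9283 alone (-2.02). Whether these pairs differ was not tested.

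ETS factors are partners of ERK signalling, either as its direct substrates or as genes that it induces. Of 15 at the floor 3 fell (20%, against 2.14% of all genes at the floor). ETV5 had 60.9 with vemurafenib and 288 with DMSO (-2.24), ETV1 had 90.5 against 349 (-1.95), and ELK3 had 399 against 1173 (-1.56). Of these, ETV5 reached the floor on the DMSO array only, which favoured falls. FLI1 had 21.0 against 60.3 (-1.52) on the probe set used, below the floor on both arrays. Another FLI1 probe set reached the floor with DMSO (log2 6.14) and had -2.16, and -2.22 in the pair with AT9283. ETV4, the third member of the ETV1 and ETV5 group, had 214 against 351 (-0.72) at 6 h, but 37.7 with vemurafenib against 506 with DMSO (-3.75) at 16 h. ETS1 had 543 against 837 (-0.62) at 6 h and 910 against 610 (0.58) at 16 h, under the rule at both times. The changes between the times were not tested.

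Among 411 genes with a transcription factor symbol at the floor, 25 fell (6.08%, against 2.14% of all genes at the floor) and 13 rose (3.16%, against 1.03%), and their median was -0.03. The factors described above made up 10 of the 25. FOXC2, a forkhead factor of mesenchyme and vessels, had 71.6 with vemurafenib and 595 with DMSO (-3.05). TBX3, a T-box factor that represses cell cycle inhibitors, had 96.1 against 404 (-2.07). TFAP2C, a relative of the neural crest factor AP-2 alpha, had 285 against 1009 (-1.82), and the vitamin D receptor VDR had 121 against 386 (-1.67). SMAD3, which carries the TGF-beta signal to the nucleus, had 92.2 against 283 (-1.62). FOXD1 (-1.48), RUNX3 (-1.42) and the homeobox factor MSX1 (-1.39) also fell. The means over probe sets put VDR at -0.91 and RUNX3 at -0.93, and MSX1 had -0.77 without shared probe sets, all under the rule. Of the factors picked after their values were seen, NFATC2 (-1.30), CITED4 (-1.29), BHLHE40 (-1.28), PPARG (-1.27), GATA3 (-1.26) and ZNF697 (-1.02) completed the 25 with HES1, a Notch target, at -2.49. HES1 had 14.7 with vemurafenib and 82.3 with DMSO, and a second probe set had -2.39. Its probe set not shared between transcripts, below the floor, had a difference of 0.0184.

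SOX2 had the highest difference of the transcription factors. This factor of neural and pluripotent stem cells had 569 with vemurafenib and 70.1 with DMSO at 6 h, 670 with both drugs and 77.1 with AT9283 alone, and 1040 with vemurafenib and 99.2 with DMSO at 16 h. Every array with vemurafenib was above every array without it, and the differences were 3.02, 3.12 and 3.39. A second SOX2 probe set had a difference of 2.15, while the other two, below the floor, had 0.86 and -0.21. The lineage factors SOX10 and MITF were under the rule. SOX10 had 319 with vemurafenib and 563 with DMSO (-0.82), and MITF, the master regulator of pigment cells, had 808 against 529 (0.61). FOXD3, a neural crest forkhead factor picked after its values were seen, had 51.7 against 10.3, below the floor on both. Of 24 measured neural crest and stem cell factors 17 were at the floor. Of these, 1 rose (5.88%, against 1.03% of all genes at the floor) and 3 fell (17.6%, against 2.14%).

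ID2 was next among regulators outside the stress response. ID proteins bind basic helix-loop-helix factors and keep them from DNA. ID2 had 507 with vemurafenib and 64.3 with DMSO (2.98), 332 with both drugs and 74.9 with AT9283 alone (2.15), and 1210 with vemurafenib and 116 with DMSO at 16 h (3.38). Its relatives ID1 and ID3, picked after their values were seen, had differences of 0.87 and 0.95, under the rule. SMAD9, a mediator of BMP signals, had 69.4 against 29.5 (1.23), and BAMBI, a decoy receptor of the TGF-beta family, had 206 against 92.5 (1.16). Other regulators that rose were ZNF436 (1.27), the thyroid hormone receptor THRB (1.18), the coactivator-binding CITED2 (1.11) and ZNF844 (1.08). As means over probe sets THRB (0.92), CITED2 (0.65) and ZNF844 (0.65) were under the rule, as was SMAD9 with an offset of 16 (0.91).

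The rest of the 13 rising transcription factors were bZIP proteins of the stress response. JDP2, a repressor that dimerises with JUN, had 257 with vemurafenib and 32.3 with DMSO (2.99). ATF3 had 393 against 89.7 (2.13), DDIT3, which encodes CHOP, had 824 against 195 (2.08) and CEBPG, a partner of ATF4, had 406 against 164 (1.31). NFIL3 (1.04) and XBP1 (1.01) were near the line and under it with an offset of 16 (0.99 and 0.95), and the mean over probe sets was 0.40 for XBP1. ATF4 itself had 4730 against 2379. Of 20 bZIP stress factors at the floor 6 rose (30%, against 1.03% of all genes at the floor) and none fell. JDP2 reached the floor on the vemurafenib array only, which favoured rises. The rises of these bZIP factors were smaller beside AT9283, with 0.89 for DDIT3, 1.10 for ATF3, 0.35 for CEBPG and 0.19 for XBP1. The difference between the pairs was not tested. ATF3 had 0.21 on its probe set not shared between transcripts, which lay below the floor.

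Promoter sequences are shown for 3 rising and 3 falling genes, picked because their windows hold a site that bZIP factors can bind. Whether any such factor acts there was not tested. Each line gives 300 bases, 250 before and 50 after the RefSeq start site (GRCh38.p14), 5′ to 3′ on the gene's strand. Capitals mark the match to the C/EBP-ATF response element (TGATGNAA) in CHAC1, ATF3 and ASNS, to the cAMP response element (TGACGTCA) in MAFF and EPHA2, and to the AP-1 site (TGACTCA) in CXCL8. The match of CHAC1 lies on the opposite strand and so reads as the reverse complement. The windows are chr15:40953221-40953520 (+) for CHAC1, chr1:212565157-212565456 (+) for ATF3, chr7:97872359-97872658 (-) for ASNS, chr22:38201744-38202043 (+) for MAFF, chr1:16156020-16156319 (-) for EPHA2 and chr4:73740319-73740618 (+) for CXCL8.
CHAC1: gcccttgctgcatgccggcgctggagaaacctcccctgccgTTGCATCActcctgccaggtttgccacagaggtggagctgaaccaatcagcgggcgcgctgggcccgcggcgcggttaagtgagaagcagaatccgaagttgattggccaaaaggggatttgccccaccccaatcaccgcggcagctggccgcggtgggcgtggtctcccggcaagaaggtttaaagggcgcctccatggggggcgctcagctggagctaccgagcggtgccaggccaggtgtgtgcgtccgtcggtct
ATF3: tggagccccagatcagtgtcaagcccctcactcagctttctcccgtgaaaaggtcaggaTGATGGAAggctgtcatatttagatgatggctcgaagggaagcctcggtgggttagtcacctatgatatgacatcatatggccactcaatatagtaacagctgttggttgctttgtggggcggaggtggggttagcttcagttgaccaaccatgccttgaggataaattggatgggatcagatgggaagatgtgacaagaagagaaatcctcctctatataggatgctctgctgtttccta
ASNS: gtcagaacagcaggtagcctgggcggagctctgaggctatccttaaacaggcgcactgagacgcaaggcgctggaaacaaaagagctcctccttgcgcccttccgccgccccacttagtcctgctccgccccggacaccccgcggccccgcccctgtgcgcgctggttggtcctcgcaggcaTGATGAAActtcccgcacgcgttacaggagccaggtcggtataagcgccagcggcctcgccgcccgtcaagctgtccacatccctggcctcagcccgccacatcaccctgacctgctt
MAFF: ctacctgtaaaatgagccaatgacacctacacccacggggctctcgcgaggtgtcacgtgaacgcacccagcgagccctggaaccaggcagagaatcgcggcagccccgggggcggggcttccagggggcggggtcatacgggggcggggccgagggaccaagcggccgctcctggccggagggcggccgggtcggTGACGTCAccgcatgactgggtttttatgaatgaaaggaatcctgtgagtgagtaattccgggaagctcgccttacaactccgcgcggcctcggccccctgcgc
EPHA2: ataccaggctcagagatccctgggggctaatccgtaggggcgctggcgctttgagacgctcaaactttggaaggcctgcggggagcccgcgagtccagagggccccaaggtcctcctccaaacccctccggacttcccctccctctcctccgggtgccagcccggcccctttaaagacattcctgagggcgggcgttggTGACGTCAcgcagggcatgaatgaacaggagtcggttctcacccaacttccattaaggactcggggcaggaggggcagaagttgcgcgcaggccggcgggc
CXCL8: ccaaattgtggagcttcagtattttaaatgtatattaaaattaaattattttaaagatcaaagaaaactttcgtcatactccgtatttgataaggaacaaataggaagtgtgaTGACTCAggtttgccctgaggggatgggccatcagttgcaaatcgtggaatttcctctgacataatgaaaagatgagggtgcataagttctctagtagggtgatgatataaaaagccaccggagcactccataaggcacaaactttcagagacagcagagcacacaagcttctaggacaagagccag

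Both strands of such windows were searched for the 3 motifs, and for the ETS core CCGGAA and the E-box CACGTG that MYC binds. Windows were at hand for 77 of the genes that rose, 153 of those that fell and 7628 of those at the floor. The C/EBP-ATF element was in 8 windows of the genes that rose (10.4%), in 2 of those that fell (1.31%) and in 1.72% of windows of genes at the floor. Of the 8 genes, 5 (S100P, ARID5B, GPX8, PLCE1 and ZNF436) are not on the ATF4 list, and the others are CHAC1, ATF3 and ASNS. The AP-1 site was in 5.23% of windows of genes that fell, 5.19% of genes that rose and 2.91% of genes at the floor, with CXCL8, IL11, PLAUR and F3 among those that fell. The cAMP response element was in 3 windows of genes that fell (1.96%), in none of the 77 that rose and in 3.43% at the floor. The ETS core was in 13.7% of windows of genes that fell, 10.4% of genes that rose and 33.1% at the floor, and the E-box in 13.1%, 10.4% and 10.9%. Matches of different motifs overlapped in 20 of 15306 windows. A match describes the letters of the window and is no measured binding.

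CHAC1, an enzyme that degrades glutathione, whose window holds the element 209 bases before the start site, had 386 with vemurafenib and 37.6 with DMSO at 6 h. It had 140 with both drugs and 31.1 with AT9283 alone, and at 16 h 76.7 with vemurafenib and 33.8 with DMSO. It rose in all 3 pairs, with differences of 3.36, 2.17 and 1.18. ASNS, which makes asparagine (picked after its values were seen), had 1932 against 504 at 6 h and 2787 against 453 at 16 h. The whole ATF4 list had a median of 0.67 at 6 h, of 0.24 in the pair with AT9283 and of 0.59 at 16 h. Without probe sets shared between transcripts 9 of its members rose in place of 18.

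Secreted growth factors were among the genes that fell. Of 14 growth factor ligands at the floor 7 fell (50%, against 2.14% of all genes at the floor) and none rose. LIF and BMP2 reached the floor on the DMSO array only, which favoured falls. TGFA, a ligand of the EGF receptor, had 121 with vemurafenib and 1036 with DMSO (-3.10), and HBEGF, which binds the same receptor, had 77.4 against 241 (-1.64), or -0.79 as the mean over its probe sets. The IL6 family cytokines IL11 and LIF had 105 against 712 (-2.75) and 38.6 against 164 (-2.08). INHBA, the activin A subunit, had 423 against 1236 (-1.55), VEGFC, the lymphatic growth factor, had 346 against 934 (-1.43), and BMP2 (picked after its values were seen) had 52.0 against 129 (-1.31). The ligands NRG1 (0.16), VEGFA (0.05) and BMP4 (0.39), also picked afterwards, were under the rule.

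Of 20 measured cytokine and innate immunity genes 9 were at the floor, and 6 of them fell (66.7%, against 2.14% of all genes at the floor). At 6 h CXCL8, TLR4, IL24, TNFAIP3 and ICAM1 reached the floor on the DMSO array only. The choice of the 9 thus favoured falls. CXCL8, the neutrophil chemokine interleukin 8, had 9.76 with vemurafenib and 189 with DMSO at 6 h, 11.1 with both drugs and 205 with AT9283 alone, and 9.54 with vemurafenib and 231 with DMSO at 16 h. It was below the floor on each vemurafenib array, so its fall at 6 h was at least 2.95-fold against the floor. CXCL1 had 85.6 against 714 (-3.06), and TLR4, the receptor of bacterial lipopolysaccharide, had 13.2 against 175 (-3.73). IL24 (-2.70), the NF-kappaB inhibitor TNFAIP3 (-1.96) and the adhesion receptor ICAM1 (-1.03) also fell, the last of these being under the rule as a mean over probe sets (-0.78), after quantile normalization (-0.998) and with an offset of 16 (-0.85). NFKBIA, another NF-kappaB inhibitor picked after its values were seen, had a difference of -0.03. Without shared probe sets 2 members fell.

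Receptor tyrosine kinases went both ways. EPHA2, an ephrin receptor, had 99.7 with vemurafenib and 878 with DMSO (-3.14). ERBB3, the neuregulin receptor, had 257 against 121 (1.09) and the collagen receptor DDR2 had 538 against 223 (1.27). EGFR, picked after its values were seen, had 54.9 against 104 (-0.92). A second ERBB3 probe set also had 1.09, but the mean over all of its probe sets was 0.50, and with an offset of 16 the difference was 0.99. Between the DMSO arrays at 16 h and 6 h ERBB3 differed by 0.94.

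Genes of the cell surface, matrix and cytoskeleton made up several of the other large falls. ANKRD1, a target of the YAP coactivator, had 38.3 with vemurafenib and 325 with DMSO (-3.08), and CCN2, another, had 203 against 694 (-1.77). Of 12 listed YAP and SRF targets at the floor 3 fell (25%, against 2.14% of all genes at the floor) and none rose. ANKRD1 reached the floor on the DMSO array only, which favoured falls. Over the 16 measured the median was -0.23, and 3 had a positive difference, the highest being 0.93. The coagulation starter F3, or tissue factor, had 24.4 against 96.1 (-1.98), and PLAUR, the urokinase receptor, had 124 against 560 (-2.18), but -0.43 on its probe set that is not shared. PTX3, a secreted pattern recognition protein, had 197 against 1636 (-3.05). SLC20A1, a phosphate transporter, had 373 against 2475 (-2.73), and RGS4, a brake on G protein signalling, had 11.1 against 102 (-3.21). The adhesion G protein-coupled receptor ADGRF1 (-3.43), the endothelial proteoglycan ESM1 (-3.15), the pleckstrin homology protein PHLDA1 (-3.03) and the pseudokinase TRIB2 (-2.67) also fell. ESM1 had 64.7 with DMSO, just above the floor, and was below it without vemurafenib in the pair with AT9283.

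**Figure D3:**
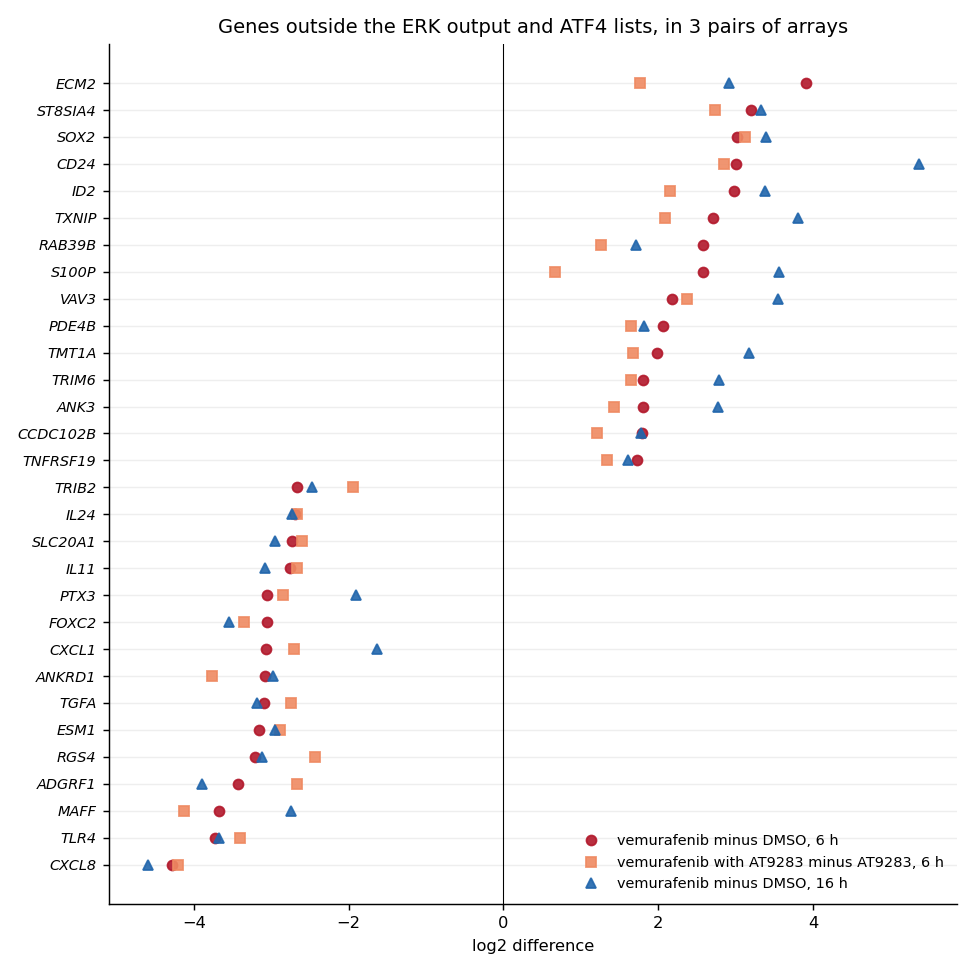
Log2 differences of the 15 highest and 15 lowest genes outside the ERK output and ATF4 program lists, uncharacterised and non-coding symbols left out, for vemurafenib minus DMSO at 6 h, both drugs minus AT9283 at 6 h and vemurafenib minus DMSO at 16 h. CXCL8 (-4.28) and ECM2 (3.91) are the ends at 6 h, and S100P has 2.57 and 3.56 against DMSO but 0.67 beside AT9283.

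Among the rises outside the lists, ECM2, an extracellular matrix protein, had 199 with vemurafenib and 13.3 with DMSO at 6 h, at least 3.11-fold against the floor. It had 51.0 with both drugs and 14.97 with AT9283 alone, and 195 with vemurafenib and 25.8 with DMSO at 16 h. ST8SIA4, which adds polysialic acid to cell surface proteins, had 999 against 108 (3.20), and CD24, a glycosylated adhesion protein, had 298 against 37.0 (3.01) at 6 h and 875 against 21.2 (5.37) at 16 h. S100P, a calcium-binding protein, had 520 against 87.4 (2.57), but 140 with both drugs and 88.2 with AT9283 alone (0.67). RAB39B, a vesicle GTPase, had 109 against 18.2 (2.58), VAV3 had 70.5 against 15.5 (2.18), and PDE4B, which degrades cyclic AMP, had 96.1 against 23.0 (2.07). TMT1A (1.98), TRIM6 (1.81), ANK3 (1.80), CCDC102B (1.79) and TNFRSF19 (1.73) followed. CCDC102B had 0.92 as the mean over its probe sets, and it differed by 1.96 between the DMSO arrays at 16 h and 6 h, so it moved as much without the drug. Between the same DMSO arrays PDE4B differed by 1.53, TNFRSF19 by 0.98 and ECM2 by 0.96, while CD24 differed by -0.81. ANK3 and TMT1A had 0.94 and 0.55 as means over probe sets, and 0.12 and 0.11 on probe sets that are not shared, all of them below the floor.

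TXNIP, an arrestin-like protein that limits glucose uptake, led the genes of FOXO activity and quiescence. It had 940 with vemurafenib and 144 with DMSO at 6 h (2.71), 788 with both drugs and 185 with AT9283 alone (2.09), and 2774 with vemurafenib and 198 with DMSO at 16 h (3.81). Its 2 other probe sets had differences of 2.75 and 2.39. CCNG2, a cyclin of resting cells, had 136 against 42.4 (1.69), ARRDC3, a relative of TXNIP, had 204 against 72.8 (1.48), and CITED2 and ERBB3 were named above. So 5 of 17 such genes at the floor rose (29.4%, against 1.03% of all genes at the floor) and none fell. CCNG2 reached the floor on the vemurafenib array only, which favoured rises. The median was 0.56 over 26 measured. CCNG2, ARRDC3 and ERBB3 also differed by 1.74, 1.22 and 0.94 between the DMSO arrays at 16 h and 6 h. In the pair with AT9283 CCNG2 had 0.34.

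CCND1, the cyclin that takes cells out of G1, had 188 with vemurafenib and 1125 with DMSO (-2.58). It was the only gene over the rule among 18 G1 cyclins, partners and inhibitors at the floor (5.56%, while 2.14% of all genes at the floor fell). The inhibitor CDKN1B had 833 against 458 (0.86) and the phosphatase CDC25A had 246 against 458 (-0.89), both picked after their values were seen. The 26 DNA replication genes had differences between -0.24 and 0.20 with a median of -0.01 at 6 h, and a median of -1.46 at 16 h. The 18 genes of RNA polymerase I and ribosome biogenesis had a median of -0.20, and no member passed the rule. In the BCL2 family the survival factors MCL1 (853 against 2073, a difference of -1.28) and BCL2L1 (149 against 338, a difference of -1.18) fell, and BCL2L11, the killer protein BIM (picked afterwards), had a difference of 0.20. In RNA of whole cultures, fewer cells of a state and less RNA per cell cannot be told apart.

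**Figure D4:**
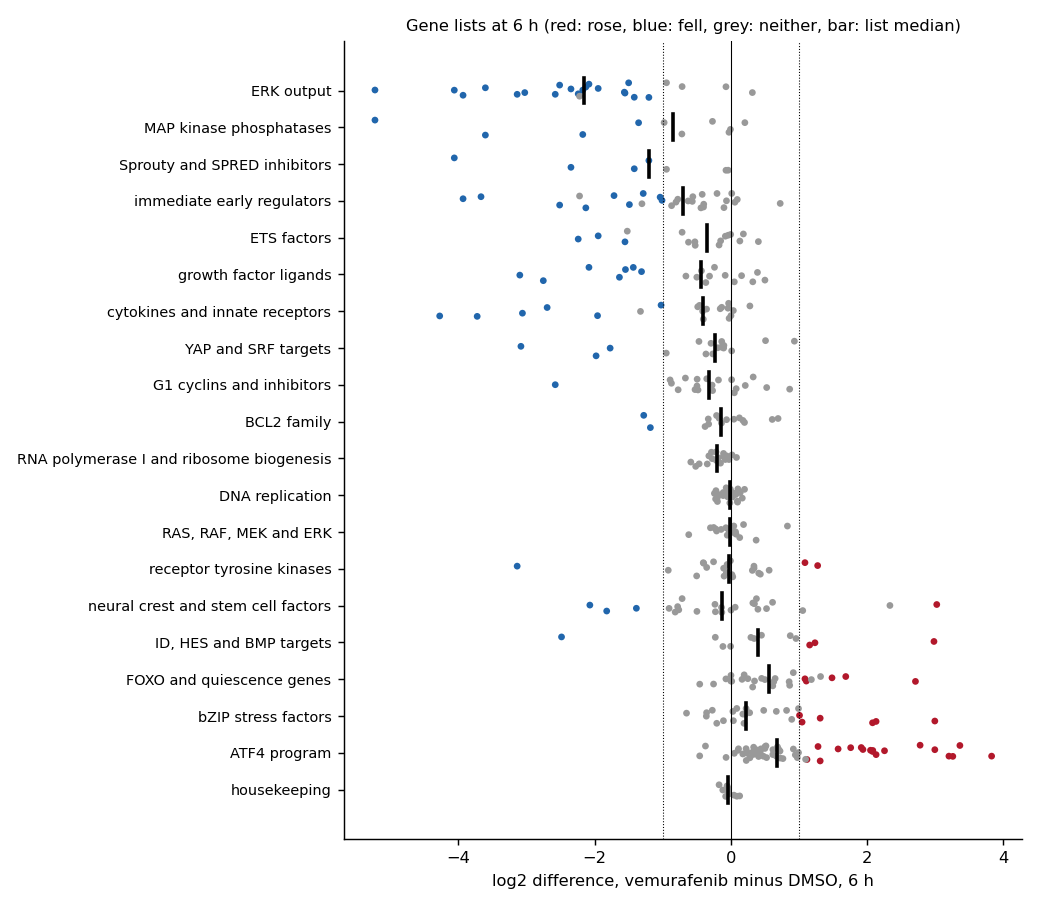
Log2 differences at 6 h, vemurafenib minus DMSO, of the measured members of each gene list (points) with the list median (bar). The medians run from -2.15 for ERK output to 0.67 for the ATF4 program, and that of all genes is 0.02.

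The response was then set beside the pairs that share no array with it. In the combination minus AT9283 at 6 h, all 195 falling genes had a negative difference and 150 of them (76.9%) fell there too, against 1.97% of genes at the floor. All 94 rising genes had a positive difference and 35 (37.2%) rose, against 0.452%. The median of the falling genes was -1.31 in that pair and that of the rising genes 0.87. The genes were chosen by size in the pair without AT9283, which by itself favours smaller sizes elsewhere. The difference between the pairs was not tested. The size was under 0.5 times that at 6 h without AT9283 for 5 genes that fell and 26 that rose, with CTH, DDIT3, ECM2 and S100P among the rising genes. At 16 h, 194 of the 195 had a negative difference and 143 (73.3%) fell, against 5.79%, while all 94 were positive and 71 (75.5%) rose, against 5.19%. The exception was UBE2QL1 at 0.16, picked for its sign. These shared genes were 26.1% of the 548 that fell and 14.5% of the 491 that rose at 16 h. Over all 3 pairs, 123 genes fell and 32 rose, while 25 that fell and 20 that rose passed the rule in the 6 h pair without AT9283 and in neither of the others.

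**Figure D5:**
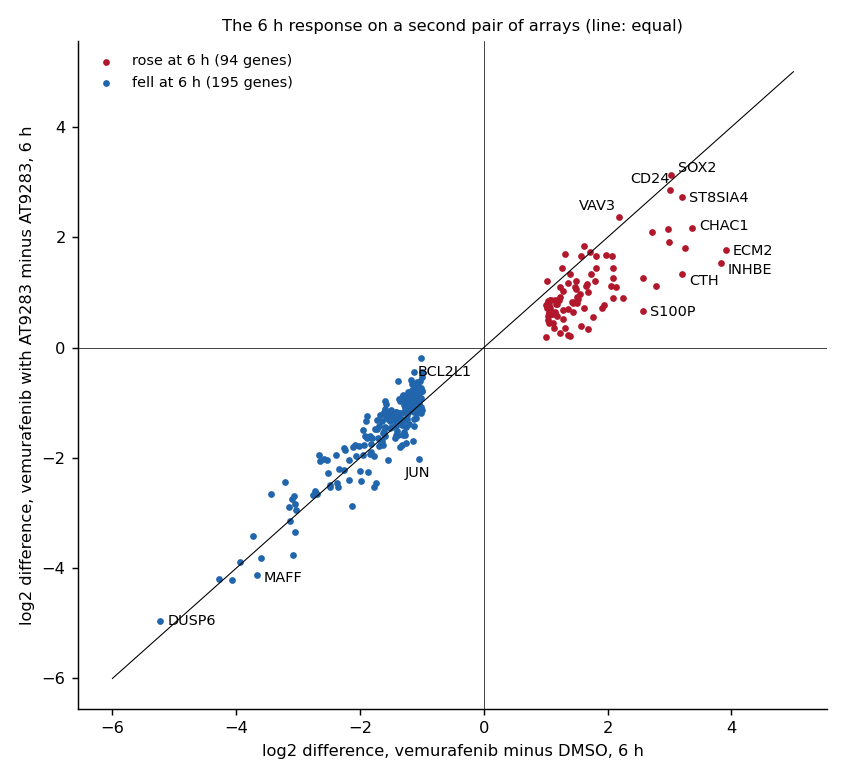
Each of the 289 genes over the size rule is placed by its log2 difference with vemurafenib alone (vemurafenib minus DMSO, x axis) and beside AT9283 (both drugs minus AT9283, y axis), at 6 h. All 195 falling genes and all 94 rising genes keep their sign, and the rising genes lie mostly nearer to 0 on the y axis, with a median of 0.87 against 1.46. The genes were chosen by their size on the x axis, which by itself favours smaller sizes on the y axis.

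Both 6 h pairs were also fitted together with limma, with AT9283 as a term. This fit has 1 residual degree of freedom, which is the interaction of the drugs and not the spread between replicates, so its standard errors are no replicate error. At an adjusted p under 0.05 (Benjamini-Hochberg), 1384 of 9219 genes were lower (15%) and 1374 higher (14.9%) with vemurafenib. Of the genes over the size rule, 194 of the 195 that fell and 89 of the 94 that rose were called, a count that the choice of these genes on 2 of the same arrays largely fixes. DUSP6 had an effect of -5.09 (SE 0.092, limma adjusted p = 2.2e-05), FOXC2 of -3.20 (SE 0.088, adjusted p = 8.55e-05) and SOX2 of 3.07 (SE 0.063, adjusted p = 2.78e-05). JUN, with unequal differences in the pairs, had -1.53 (SE 0.22, adjusted p = 0.00783), S100P had 1.62 (SE 0.41, adjusted p = 0.0379), and XBP1 with 0.60 (SE 0.19, adjusted p = 0.0631) and CCNG2 with 1.01 (SE 0.31, adjusted p = 0.0585) were not called.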

How the data were processed

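RNA of A375 cells was hybridised to 6 Affymetrix arrays, 1 per condition, and conditions were taken from the labels. The deposited table gives each probe set's intensity, linear and not logged, and the submitters' processing notes name RMA. For its version and for any later step, nothing is given in the sources used here.

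In 6 blocks of the table, 1118 of 54675 probe sets (2.04%) held 6 h values that belong to other probe sets of the block. The DMSO arrays correlated there at r = 0.455 as deposited and at 0.984 in the other sort order, against 0.992 over the other 53495 probe sets. The 1118 moved and the 62 control probe sets were left out, which removed 99 genes. By the platform annotation 41097 probe sets had 1 gene symbol, 1801 several and 11777 none. Where a gene had several probe sets, the one brightest on average was used.

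The deposited intensity values were taken to log2 and subtracted. Since vemurafenib and DMSO had 1 array a side, their own comparison used the size rule and no test. The fit across genes used limma 3.58.1 (R 4.3.3) with a trended prior on the genes at or above the floor on at least 1 of the 4 arrays at 6 h. Its p-values set the mean effect of vemurafenib against an error taken from the difference between the 2 pairs, which may be technical. Tables were made with Python 3.11.15 and pandas 2.3.3. Promoters came from RefSeq (GRCh38.p14).

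The genes and lists were chosen with earlier results of these data known. Named genes are the 15 highest and 15 lowest outside the ERK and ATF4 lists (uncharacterised and non-coding symbols left out), the same numbers of transcription factors, up to 6 per list, the 10 highest and 10 lowest with both arrays at the floor, and genes picked for the question. Not every one is printed. Alternatives were the probe set rule, the scaling, an offset of 16, the floor, the control and the moved probe sets.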

Additional observations from a re-analysis of the deposited data

Results flagged for a closer look

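ETS1 had opposite directions at the 2 times, with a difference of -0.62 after 6 h and 0.58 after 16 h of vemurafenib. Both are under the size rule, and the difference between the times was not tested.

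DDIT4 and PCK2 lie in the part of the table whose 6 h values sit on other probe sets, so they entered no comparison. With the 6 h values put back in the other order, DDIT4, a stress-induced inhibitor of mTORC1, had 3016 with vemurafenib and 1244 with DMSO (a log2 difference of 1.28), with 0.31 in the pair with AT9283 and 0.05 at 16 h. PCK2, the mitochondrial PEP carboxykinase, had 337 with vemurafenib and 80.3 with DMSO (2.07), with 0.72 in the pair with AT9283 and 2.63 at 16 h.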

How the results depend on the processing

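No paired analysis was possible because each condition has 1 array and the number 1 is shared by all of them. For the same reason no replicate could be left out. The mean over a gene's probe sets gave 57 genes higher and 129 lower in place of 94 and 195. Of these, 18 higher and 99 lower ones passed the rule again beside AT9283, and 40 and 94 at 16 h. Without a floor 145 genes were higher and 232 lower. Added after the data were seen were both arrays at the floor, with 52 genes higher and 119 lower, and a difference of at least 0.5, with 415 and 620. The remaining settings, which were shared probe sets left out, median centring, quantile normalization, an offset of 16, a floor of log2 7, another control and the moved probe sets kept or put back, gave between 66 and 96 higher and between 152 and 199 lower.

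Of 94 named genes over the rule, none changed sign under the mean over probe sets, either scaling, the offset or the moved probe sets kept or put back. The difference was under the size for 14 of them with the mean over probe sets, 8 with the offset, 4 after quantile normalization, 1 after median centring and 1 with the moved probe sets as deposited. Without shared probe sets HES1 turned to 0.0184, the 1 reversal among 76 that could be read, and 8 were under the size. CXCL8 had -0.08 with the moved probe sets as deposited, since another probe set was then used, and was over the rule again once they were put back. The limma fit called 2758 genes, 3107 without a filter, 2209 without shared probe sets and 3154 after quantile normalization.

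Low intensities limit the sizes. Differences of genes below the floor on 1 array depend on values near background, and 76 of the falls and 42 of the rises are of this kind.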

Other observations

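Other gene groups, all put together after their values were seen, held further members of the response. Of 22 genes of the TGF-beta and activin axis at the floor 6 fell (27.3%, against 2.14% of all genes at the floor). The list does not hold BAMBI, which rose. Beside INHBA and SMAD3 these were the feedback gene PMEPA1, which had an intensity of 179 with vemurafenib and 645 with DMSO (a log2 difference of -1.85), the activin antagonist follistatin (FST, 501 against 1680, -1.75), the receptor TGFBR2 (200 against 550, -1.46) and the ubiquitin ligase SMURF2 (564 against 1238, -1.13). FST fell in the pair with AT9283 and at 16 h too, with -2.46 and -3.45. Of 15 NF-kappaB signalling genes at the floor 5 fell (33.3%, against the same 2.14%), with the adaptors MALT1 (-1.52), CARD10 (-1.29) and IRAK2 (-1.22) beside TLR4 and TNFAIP3. IRAK2, TLR4 and TNFAIP3 reached the floor on the DMSO array only, which favoured falls.

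Members of smaller families also passed the rule. The pseudokinases TRIB1 (77.2 with vemurafenib and 309 with DMSO, a difference of -2.003) and TRIB2 fell, whereas the stress-induced TRIB3 had a difference of 0.92. The thrombin receptor F2R (1450 against 673, 1.11) and its relative F2RL2 (330 against 146, 1.18) rose. The protocadherins PCDH18 (112 against 34.0, 1.71) and PCDH10 (192 against 82.2, 1.23) rose in all 3 vemurafenib pairs. Of 7 TNF receptor family members at the floor, TNFRSF10A (-2.39), TNFRSF11B (-1.42) and TNFRSF21 (-1.40) fell and TNFRSF19 rose. These are 42.9% and 14.3% of the 7, against 2.14% and 1.03% of all genes at the floor. The ZNF family had 2 rises and 1 fall among 225 genes at the floor, shares of 0.889% and 0.444%, against 1.03% and 2.14% of all genes. CD274, the immune checkpoint ligand PD-L1, had 20.2 with vemurafenib and 71.9 with DMSO (-1.83), -1.62 in the pair with AT9283 and -1.26 at 16 h.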
